A study of Mus musculus with 6 samples.

Results

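Hepatokines are proteins that the liver secretes and that act on other tissues, and the levels of several follow the fed and fasted state. The 9 genes described here were chosen by name: Angptl8 and Angptl4, angiopoietin-like regulators of lipoprotein lipase; Fgf21, a fibroblast growth factor hormone; Inhbe, the beta subunit of activin E; Rbp4, the plasma carrier of retinol; Ahsg and Fetub, the fetuins A and B; Lect2, leukocyte cell-derived chemotaxin; and Enho, which encodes the peptide adropin. All 9 were found by symbol in a table of 10956 named genes, and all 9 passed the filter on low values. RNA of whole liver was sequenced in 6 libraries; the mice were males of the inbred strain C57BL/6J, aged 8 weeks. Fasted libraries 1, 3 and 4 came from mice without food for 12 h from 10 pm. Refed libraries 5, 7 and 8 came from mice that were without food for 12 h of daytime and then ate a diet with 69% sucrose and 10% fat for 12 h from 10 pm, and all livers were taken at 10 am.

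The pathways involved are well known. Lipoprotein lipase releases fatty acids from circulating triglyceride, and ANGPTL4 inhibits it in fasting, whereas ANGPTL8 is made after feeding. Liver FGF21 signals through FGF receptors with the co-receptor beta-klotho, and its gene is known to respond to PPAR-alpha in fasting, to the carbohydrate-responsive factor ChREBP and to ATF4 in stress. Activin E from the liver acts on adipose tissue, where it restrains lipolysis.

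Expression was measured as RPKM, reads per kilobase of transcript, scaled to the reads of the library, so levels can be compared between genes. Read numbers cover the authors' called genes alone and total between 26237934 and 33219013 in each library, a part of its depth. Fasted 1 stood apart from the other libraries in acute phase transcripts: 24 of 25 listed genes were in the table, and their summed level was 47126 RPKM in fasted 1 against 13915 to 21750 in the other 5 libraries. Kupffer cell markers, 9 of 9 in the table, summed to 142 RPKM in fasted 1 and 48.7 to 89.0 in the others. Hepatocyte markers, 9 of 9, summed to 49263 to 57633 RPKM in fasted and 50612 to 51533 in refed liver, led by Alb. Among them 2 passed as lower in refed liver, Tat (mean 1101 against 261 RPKM) and Hnf4a (220 against 177 RPKM). Of 8 adipocyte markers 3 were in the table, at a summed 9.92 to 10.9 RPKM in fasted and 10.8 to 15.1 in refed liver, and the defining genes Adipoq, Plin1 and Lep were not among them. None of 8 lymphocyte markers was in the table. Endothelial markers, 9 of 9, summed to 54.3 to 63.0 RPKM in fasted and 64.8 to 72.8 in refed liver in the deposited scaling, without overlap, and 2 of them passed as higher, Oit3 and Gpr182. Of 7 cholangiocyte markers 5 were tested and 3 passed as higher, Krt19, Krt7 and Sox9, while the summed level overlapped at 17.9 to 27.0 RPKM in fasted and 21.3 to 29.6 in refed liver. Most of that sum was Spp1, which did not pass, at 14.3 to 23.8 RPKM in fasted and 15.1 to 22.7 in refed liver. Krt19 and Krt7 stayed under 1 RPKM in every fasted library. As every listed transcript reaches 1 RPKM in some library, they are present through refed liver alone. Stellate cell markers, 9 of 10, summed to 83.8 to 160.3 RPKM in fasted and 115 to 143 in refed liver, and 1 passed as higher, Des.

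Refed liver held more Angptl8 and less Angptl4, Inhbe and Rbp4 than fasted liver, and the other 5 genes did not pass the test. With limma on log2(RPKM + 1) and Benjamini-Hochberg adjustment over 10899 genes at a threshold of 0.05, 1 gene of 9 was higher and 3 were lower. Of all genes tested 42.2% passed, 26.4% higher and 15.8% lower, so the 4 of 9 that passed are a share near that of the whole table. The median log2 fold change was -0.22 over the 9 genes and 0.10 over all genes tested. Fasted and refed libraries did not overlap for 6 of the 9 genes, against 55.4% of all genes. In a bulk sample, fewer cells of a type and less RNA per cell cannot be told apart. Separate animals are not stated for the libraries, and the p-values therefore reflect only the spread among these samples, some of which may be technical.

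**Figure D1:**
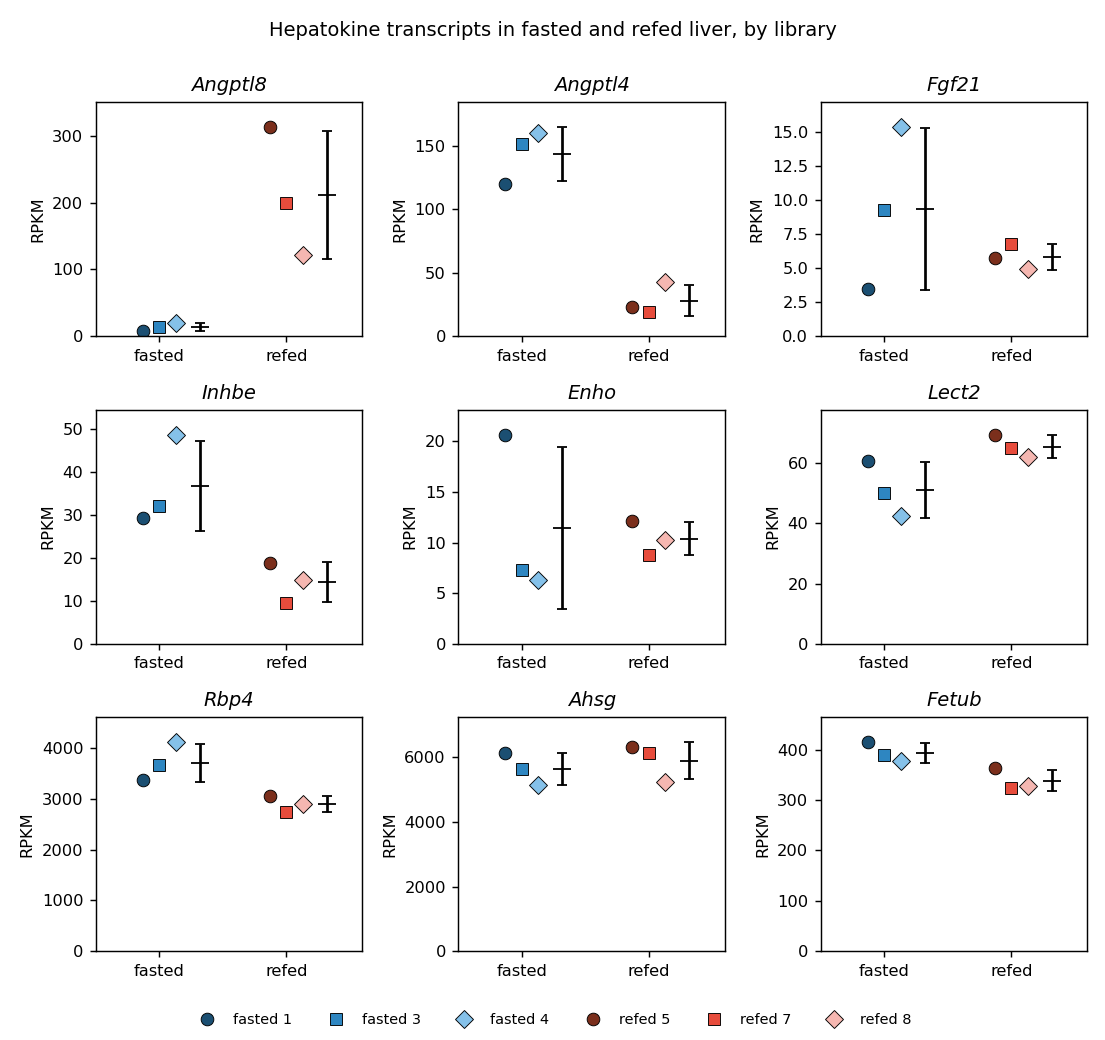
RPKM (y axis, linear from 0) of each of the 9 genes in the 3 fasted and 3 refed libraries; each point is a library, and the bar at its right is the mean ± SD (n = 3). Angptl8 runs from 7.56 to 20.0 in fasted and from 121 to 313 in refed liver, Angptl4 and Inhbe separate in the other direction, and fasted 1 is the lowest of all libraries for Fgf21 and the highest for Enho.

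The 9 genes differed widely in transcript abundance. In fasted liver the order of mean level was Ahsg, Rbp4, Fetub, Angptl4, Lect2, Inhbe, Angptl8, Enho and Fgf21, from 5632 ± 497 RPKM for Ahsg to 9.34 ± 5.94 for Fgf21 (SD, n = 3). The ranges of Lect2 and Inhbe overlapped, as did those of Angptl8, Enho and Fgf21. In refed liver Angptl8 moved to the fourth place, behind Fetub and ahead of Lect2, and Angptl4 to the sixth, while Fgf21 stayed last at 5.79 ± 0.921 RPKM. Ahsg ranked between 8 and 11 among all genes in every library and Rbp4 between 13 and 21. Angptl8 ranked between 2470 and 4901 in fasted and between 195 and 533 in refed liver, and Angptl4 between 395 and 502 in fasted and between 1403 and 2663 in refed liver. Together the 9 genes held 2.07% to 2.11% of summed RPKM in fasted and 1.84% to 2.16% in refed liver.

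Promoter windows of RefSeq (build GRCm38.p6, from 250 bases before to 50 bases after a start site) were found for 7 of the 9 genes, 9 windows in all; Angptl4 and Enho had no entry. They were searched on both strands for the E-box CACGTG, the carbohydrate response element made of a pair of E-boxes, the direct repeat 1 of nuclear receptors, the ATF4 and C/EBP composite TGATGNAAT, the sterol response element TCACNCCAC, the FOXO motif GTAAACA and the TATA box TATAAA. The windows of Angptl8 (chr9:21835260-21835559, plus strand), Fgf21 (chr7:45615441-45615740, minus strand) and Rbp4 (chr19:38125272-38125571, minus strand) are shown because each holds the ATF4 and C/EBP composite, and that of Inhbe (chr10:127351799-127352098, minus strand) because this gene was lower in refed liver. Capitals mark every match to the motifs searched.
Angptl8: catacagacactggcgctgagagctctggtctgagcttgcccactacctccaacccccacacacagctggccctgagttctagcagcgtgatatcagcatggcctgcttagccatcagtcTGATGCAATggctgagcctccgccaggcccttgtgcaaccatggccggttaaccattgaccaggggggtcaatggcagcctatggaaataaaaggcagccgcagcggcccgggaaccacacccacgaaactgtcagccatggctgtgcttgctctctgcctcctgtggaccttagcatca
Fgf21: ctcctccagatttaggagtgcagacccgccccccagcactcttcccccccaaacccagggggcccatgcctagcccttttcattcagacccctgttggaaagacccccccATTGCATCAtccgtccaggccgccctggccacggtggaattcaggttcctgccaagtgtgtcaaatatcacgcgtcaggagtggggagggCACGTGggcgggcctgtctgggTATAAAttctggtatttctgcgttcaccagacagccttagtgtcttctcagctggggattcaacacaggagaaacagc
Rbp4: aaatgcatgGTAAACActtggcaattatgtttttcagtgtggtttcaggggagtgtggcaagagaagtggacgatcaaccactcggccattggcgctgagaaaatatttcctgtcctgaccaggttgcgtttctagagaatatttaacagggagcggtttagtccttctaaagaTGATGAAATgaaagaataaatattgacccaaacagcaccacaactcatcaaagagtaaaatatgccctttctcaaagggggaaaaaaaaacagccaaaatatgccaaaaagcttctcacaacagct
Inhbe: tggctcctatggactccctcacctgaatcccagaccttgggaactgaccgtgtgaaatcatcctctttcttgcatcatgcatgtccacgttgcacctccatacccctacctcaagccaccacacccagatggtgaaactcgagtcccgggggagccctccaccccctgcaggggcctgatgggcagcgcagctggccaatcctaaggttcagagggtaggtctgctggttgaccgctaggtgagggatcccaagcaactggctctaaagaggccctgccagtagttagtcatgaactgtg

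The composite TGATGNAAT was in windows of 3 of the 7 genes, which have 9 windows in all. Of all 32851 windows of the same length 0.965% hold it, a share of windows and not of genes, and enrichment was not tested. In Angptl8 it reads TGATGCAAT and begins 130 bases before the start site; in Rbp4 it reads TGATGAAAT and begins 76 bases before the upstream of its start sites; in Fgf21 it lies on the opposite strand, as ATTGCATCA, beginning 140 bases before the start. The Fgf21 window also holds an E-box 50 bases before the start, a motif found in 7.15% of all windows, and a TATA box at 28 bases, found in 13.6%. GTAAACA stands 241 bases before the start in the same Rbp4 window and, on the opposite strand, 236 bases before a start of Fetub, and 3.65% of all windows hold it. TATA boxes also stand 31 bases before a start of Fetub and 28 bases before the downstream start of Rbp4, so 3 of the 7 genes hold this motif. None of the searched motifs was in the Inhbe window. The carbohydrate response element was searched only as a pair of exact E-boxes at a fixed spacing, and none of the 32851 windows holds that form. Its absence from the 9 windows therefore cannot set these genes apart, and looser forms of the element were not searched. The direct repeat 1 and the sterol response element were in none of the 9, against 0.0396% and 1.24% of all windows. A match of letters describes the sequence and was not tested for binding.

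Angptl8 showed the largest difference of the 9 genes. Its level was 7.56 RPKM in fasted 1, 13.2 in fasted 3 and 20.0 in fasted 4, and 313 in refed 5, 199 in refed 7 and 121 in refed 8. The lowest refed library lay above the highest fasted one, while within each group the libraries spread widely, by 2.65 times in fasted and 2.58 times in refed liver. The group means were 13.6 ± 6.22 and 211 ± 96.5 RPKM (SD, n = 3), a 15.6-fold rise (log2 fold change 3.85 ± 0.39 SE, limma adjusted p = 0.00024). The authors' deposited table, which lists the gene as Gm6484 on chromosome 9 (mm9, 21639954 to 21641790, plus strand), gives 379 to 1017 reads in the fasted and 5972 to 16485 in the refed libraries, with a log2 fold change of 3.80. In GENCODE M21 (GRCm38) Angptl8 lies inside Dock6, which is transcribed from the other strand, and none of its exons overlaps an exon of Dock6. Dock6, a guanine nucleotide exchange factor, also rose, from 2.47 ± 0.319 to 10.5 ± 1.56 RPKM (log2 fold change 1.72 ± 0.12, limma adjusted p = 5.4e-05). No source used here says whether the counting used strand, and the part of overlap in either value was not tested.

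Angptl4 went the other way. It was at 120 RPKM in fasted 1, 151 in fasted 3 and 160 in fasted 4, and at 22.8 in refed 5, 18.8 in refed 7 and 42.2 in refed 8. Fasted and refed libraries were far apart, and refed 8 was the highest of the refed libraries for Angptl4 and the lowest for Angptl8. The fall was 5.14-fold, from 144 ± 21.1 to 27.9 ± 12.5 RPKM (log2 fold change -2.39 ± 0.27, limma adjusted p = 0.00038). Reads of Angptl4 (mm9, chromosome 17, 33910695 to 33918520, minus strand) numbered 13700 to 18103 in fasted and 2529 to 4556 in refed libraries in the authors' deposited table. The ratio of Angptl8 to Angptl4, both per kilobase, was 0.0631, 0.0873 and 0.125 in fasted 1, 3 and 4 and 13.7, 10.6 and 2.88 in refed 5, 7 and 8. Angptl4 was thus the more abundant of the pair in each fasted library, and Angptl8 in each refed one.

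Other genes of lipoprotein lipase control showed smaller differences. Of 18 listed, 16 were tested, 3 were higher, 4 lower and 9 did not pass, with a median log2 fold change of -0.10. Angptl6, another member of the family, rose 2.41-fold to 27.6 ± 2.97 RPKM (limma adjusted p = 0.00053). Apoa5, an apolipoprotein that favours lipase action, fell from 501 ± 45.5 to 197 ± 59.3 RPKM (-1.39 ± 0.22 on the log2 scale, adjusted p = 0.0018), and Lipg, endothelial lipase, fell by 1.09 (adjusted p = 0.002). Apoc3, an inhibitor of clearance, was at 2032 ± 159 and 2276 ± 261 RPKM (adjusted p = 0.32). Lpl itself was at 3.32 ± 0.662 and 3.53 ± 0.494 RPKM (adjusted p = 0.70), and Lipc, hepatic lipase, at 62.0 ± 9.97 and 54.9 ± 2.13 (adjusted p = 0.32). Gpihbp1, the endothelial anchor of the lipase, was higher at 11.7 ± 1.99 against 7.96 ± 1.95 RPKM. The log2 fold change of Gpihbp1 was 0.52 ± 0.18 (adjusted p = 0.049), a call lost in each of the 3 other scalings, where its adjusted p was 0.09 to 0.095, and without fasted 1, fasted 4, refed 5 or refed 7, where it was 0.058 to 0.14. Of 9 endothelial markers 2 were also higher in refed liver. These were Oit3 (4.11 in fasted against 6.37 RPKM, limma adjusted p = 0.0087) and Gpr182 (4.89 against 7.57 RPKM, adjusted p = 0.0024). The other 7 did not pass, and the means of Stab2 (5.26 against 4.61 RPKM) and Stab1 (5.98 against 5.71 RPKM) were lower in refed liver. The part of endothelial cells in the Gpihbp1 value was not tested. In the 3 other scalings 1 gene of the lipase list was higher and 5 were lower. The number higher was also 1 with a constant prior variance and without fasted 1, fasted 4, refed 5 or refed 7, and the number lower was 2 without fasted 3 or refed 5.

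Fgf21 did not separate the groups. It was at 3.46 RPKM in fasted 1, 9.24 in fasted 3 and 15.3 in fasted 4, and at 5.76, 6.73 and 4.89 in refed 5, 7 and 8. Fasted 1 lay below all refed libraries and the other fasted libraries above them. The means were 9.34 ± 5.94 and 5.79 ± 0.921 RPKM (log2 fold change -0.43 ± 0.40, limma adjusted p = 0.43), with a 95% interval of the log2 fold change from -1.36 to 0.50. Without fasted 1 the log2 fold change was -0.94 ± 0.21 and passed (adjusted p = 0.013), and without fasted 4 it was -0.00. Fasted 1 is the library with the high acute phase transcripts, whose part in its low Fgf21 was not tested.

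Genes known to act on Fgf21 moved in opposite directions. Of 16 listed genes of its receptors and regulators, 15 were tested, 4 were higher and 6 lower, with a median log2 fold change of -0.21. Ppara, the fasting-active nuclear receptor, fell from 54.7 ± 4.46 to 12.4 ± 2.63 RPKM (limma adjusted p = 4.0e-05), and Creb3l3, which acts with it, fell from 211 ± 13.9 to 73.1 ± 21.0. Mlxipl, which encodes ChREBP, rose from 105 ± 22.9 to 290 ± 34.9 RPKM, and Atf4 rose from 36.4 ± 1.78 to 74.1 ± 2.32 (log2 fold change 1.01 ± 0.08). Klb, the beta-klotho co-receptor, fell from 10.5 ± 1.92 to 5.92 ± 1.5 RPKM (log2 fold change -0.75 ± 0.18, adjusted p = 0.012). Fgfr4, the main FGF receptor of hepatocytes, was at 15.2 ± 1.57 and 12.0 ± 2.08 RPKM (adjusted p = 0.081) and passed as lower in the 3 other scalings at 0.036 to 0.04 and without refed 5 at 0.029. Fgfr1 was low, at 1.64 ± 0.685 and 1.49 ± 0.0681 RPKM (adjusted p = 0.83), and Fgfr3 rose from 5.83 ± 0.755 to 15.1 ± 4.22 RPKM (adjusted p = 0.0013).

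Inhbe was lower in refed liver. It was at 29.3 RPKM in fasted 1, 32.1 in fasted 3 and 48.6 in fasted 4, and at 18.7, 9.4 and 14.7 in refed 5, 7 and 8. No refed library reached the lowest fasted one. The mean fell 2.57-fold from 36.7 ± 10.5 to 14.3 ± 4.66 RPKM (log2 fold change -1.32 ± 0.26, limma adjusted p = 0.0049). The authors' deposited table places Inhbe on chromosome 10 (mm9, 126786458 to 126788828, minus strand) and lists 3465 to 5500 reads in fasted and 1293 to 2292 in refed libraries.

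Values of the other activin beta subunits stand beside those of Inhbe. Inhba, the subunit of activin A, was at 0.888, 0.917 and 1.18 RPKM in fasted 1, 3 and 4 and at 15.3, 15.4 and 11.9 in refed 5, 7 and 8. Its mean rose 14.3-fold, with a log2 fold change of 2.93 ± 0.12 and a limma adjusted p of 5.2e-06, and the authors' deposited table lists 117 to 181 reads in fasted and 1596 to 2695 in refed libraries. Refed liver therefore held Inhba and Inhbe at similar levels, with a ratio of Inhba to Inhbe of 0.817, 1.64 and 0.807 in refed 5, 7 and 8, against 0.0303, 0.0286 and 0.0242 in fasted 1, 3 and 4. Inhbb, the subunit of activin B, rose from 0.254 ± 0.0614 to 0.853 ± 0.149 RPKM (adjusted p = 0.0066). Only refed 8, at 1.02 RPKM, reached the 1 RPKM that every listed transcript reaches in some library. Inhbb is thus listed through refed liver alone, and its rise is no independent support for a difference. Inhbc, the neighbour of Inhbe on chromosome 10 and like it a subunit made mainly by hepatocytes, was at 43.7 ± 12.5 and 35.6 ± 7.35 RPKM with overlapping groups (log2 fold change -0.27 ± 0.23, adjusted p = 0.37). The differences between subunits were not tested. Over the activin list of 18 genes, 13 were tested, 4 higher and 1 lower, the latter being Acvr1b, a type I activin receptor (log2 fold change -0.42 ± 0.11, adjusted p = 0.014), which lost its call without refed 5 (adjusted p = 0.056). Fstl1, a follistatin-like protein gene, rose from 0.709 ± 0.285 to 1.65 ± 0.224 RPKM. It too reached 1 RPKM only in refed libraries, and the 4 genes counted as higher include both Inhbb and Fstl1.

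**Figure D2:**
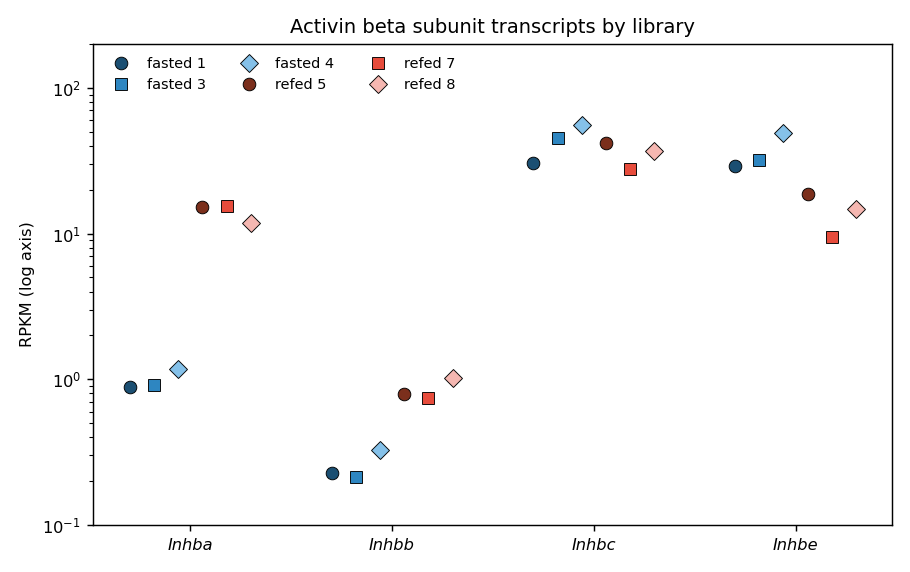
RPKM on a log axis of the 4 activin beta subunit genes, each point a library, blue for fasted and red for refed. Inhba lies between 0.888 and 1.18 in fasted and between 11.9 and 15.4 in refed liver, Inhbb is higher in each refed library, Inhbc overlaps between groups and Inhbe is lower in each refed library.

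Rbp4 was abundant in both groups and moderately lower in refed liver. It was at 3367 RPKM in fasted 1, 3653 in fasted 3 and 4110 in fasted 4, and at 3047, 2737 and 2896 in refed 5, 7 and 8. The groups did not overlap, but the highest refed and lowest fasted library lay close together. The mean of 2894 ± 155 RPKM was 1.28-fold below that of 3710 ± 375 (SD, n = 3), with a log2 fold change of -0.35 ± 0.12 and a limma adjusted p of 0.043. The call was lost with quantile normalization (adjusted p = 0.18) and without fasted 3 (0.10), fasted 4 (0.11), refed 5 (0.084), refed 7 (0.12) or refed 8 (0.11). A second Rbp4 transcript in the table ran in parallel at a lower level, with a mean of 2370 RPKM and a ratio of refed to fasted of 0.778 against 0.780. The authors' deposited table lists Rbp4 (mm9, chromosome 19, 38191110 to 38199811, minus strand) with a log2 fold change of -0.54, an FDR of 2.9e-06 and 149868 to 221148 reads per library.

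Genes that handle retinol changed in both directions. Of 21 listed, 17 were tested, 5 were higher, 4 lower and 8 did not pass, with a median log2 fold change of 0.33, and in the 3 other scalings, as also without refed 8, 3 were higher. Ttr, the transthyretin that binds the retinol carrier in plasma, averaged 3308 ± 361 and 3505 ± 288 RPKM (log2 fold change 0.09 ± 0.13, limma adjusted p = 0.62). Stra6l, a receptor for the carrier in liver, rose 1.96-fold from 33.5 ± 1.93 to 65.9 ± 2.89 RPKM (log2 fold change 0.95 ± 0.08, adjusted p = 0.00011). Rdh11, a retinol dehydrogenase, rose 8.5-fold from 8.84 ± 0.525 to 75.1 ± 17.7 RPKM. Rdh16, another, fell from 25.1 ± 1.49 to 15.0 ± 3.23 RPKM (adjusted p = 0.0054). Rxra, the partner receptor of retinoic acid receptors, fell from 96.8 ± 2.80 to 58.8 ± 10.9 RPKM (log2 fold change -0.72).

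The fetuins differed little between fasted and refed liver. Ahsg, whose product binds calcium phosphate in plasma and inhibits the insulin receptor, was at 6131, 5627 and 5137 RPKM in fasted 1, 3 and 4 and at 6295, 6127 and 5232 in refed 5, 7 and 8. The groups overlapped throughout their range (log2 fold change 0.06 ± 0.13, 95% interval -0.24 to 0.37, limma adjusted p = 0.73). Fetub, whose product in the mouse inhibits the egg protease ovastacin, was at 414, 389 and 377 RPKM in fasted 1, 3 and 4 and at 363, 324 and 328 in refed 5, 7 and 8. Its refed libraries all lay below its fasted ones by a small margin (log2 fold change -0.22 ± 0.09, 95% interval -0.43 to -0.01, adjusted p = 0.087), and its 3 transcripts gave ratios of refed to fasted of 0.859 to 0.860. With library medians set equal, Fetub passed as lower (adjusted p = 0.036), as it did with TMM factors (0.029). It did not pass with quantile normalization (-0.17, adjusted p = 0.15) or with any library left out (0.086 to 0.21). The authors' deposited table lists Fetub at -0.34 with an FDR of 0.015. Ahsg was 13.6 to 14.8 times as abundant as Fetub in fasted and 16.0 to 18.9 times in refed libraries. In GENCODE M21 an exon of the antisense gene Gm30505 overlaps an exon of Ahsg, and without strand their reads cannot be told apart.

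Relatives of the fetuins in the cystatin superfamily lie beside them on chromosome 16. Of 9 listed genes of this group and its partners, 5 were tested, none was higher and 2 were lower, Insr and Kng2. Hrg, the histidine-rich glycoprotein and next gene after Fetub, was at 737 ± 154 and 565 ± 29.7 RPKM (log2 fold change -0.36 ± 0.15, limma adjusted p = 0.082), and passed without fasted 4 (0.041). The kininogen gene Kng1 was at 932 ± 93.1 and 780 ± 42.6 RPKM (adjusted p = 0.091). Kng1 passed as lower with centring (0.045) and TMM (0.038), but not with quantile normalization (0.28) or with any library left out (0.10 to 0.24). Its copy Kng2 was lower (-0.34 ± 0.12, adjusted p = 0.048), lost that call without fasted 1, fasted 4 or any of the refed libraries (0.075 to 0.14), and can share reads with Kng1. Insr, the insulin receptor gene, was lower at 10.0 ± 0.359 against 17.3 ± 1.05 RPKM (adjusted p = 0.00036).

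Lect2 and Enho passed only with fasted 1 left out. Lect2 was at 60.8 RPKM in fasted 1, 49.9 in fasted 3 and 42.5 in fasted 4, and at 69.5, 65.1 and 62.0 in refed 5, 7 and 8. The groups did not overlap, with fasted 1 just below refed 8 (log2 fold change 0.37 ± 0.13, 95% interval 0.07 to 0.67, limma adjusted p = 0.052). Without fasted 1 Lect2 passed as higher in refed liver (0.50 ± 0.10, adjusted p = 0.01). Without fasted 4 its log2 fold change moved the other way, to 0.24 ± 0.11 (limma adjusted p = 0.13). In the 3 other scalings, with all libraries, its log2 fold change was 0.26 to 0.28 and did not pass (adjusted p = 0.16 to 0.20). Enho was at 20.7 RPKM in fasted 1 but 7.33 and 6.26 in fasted 3 and 4, and at 12.1, 8.78 and 10.3 in refed 5, 7 and 8. Fasted 1 was the highest library and the other fasted libraries the lowest (log2 fold change 0.05 ± 0.37, adjusted p = 0.93), and without fasted 1 the log2 fold change was 0.54 ± 0.14 (adjusted p = 0.022). An exon of Dnaic1 overlaps an exon of Enho in GENCODE M21, so reads at Enho are uncertain between these genes without strand. Dnaic1 itself had no listed transcript, and each listed transcript reaches at least 1 RPKM in some library. The part of Dnaic1 in the Enho value was not tested. Met, the hepatocyte growth factor receptor that LECT2 is reported to bind, fell from 12.7 ± 1.26 to 7.27 ± 0.205 RPKM (-0.72 ± 0.09, limma adjusted p = 0.00071), the only gene past the threshold among 5 tested of 6 listed partners of LECT2 and adropin.

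Without fasted 1, 7 of the 9 genes passed: Angptl8, Enho and Lect2 as higher and Fgf21, Angptl4, Inhbe and Rbp4 as lower. The share of all genes that passed was then 38.5%, 23.4% higher and 15.1% lower, and the 2 remaining fasted libraries share the estimate of spread with the refed ones. Angptl8, Angptl4 and Inhbe passed with each of the 6 libraries left out in turn and in each of the 3 other scalings. Their log2 fold changes ranged over the left-out libraries from 3.52 to 4.20, from -2.73 to -2.16 and from -1.52 to -1.06.

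**Figure D3:**
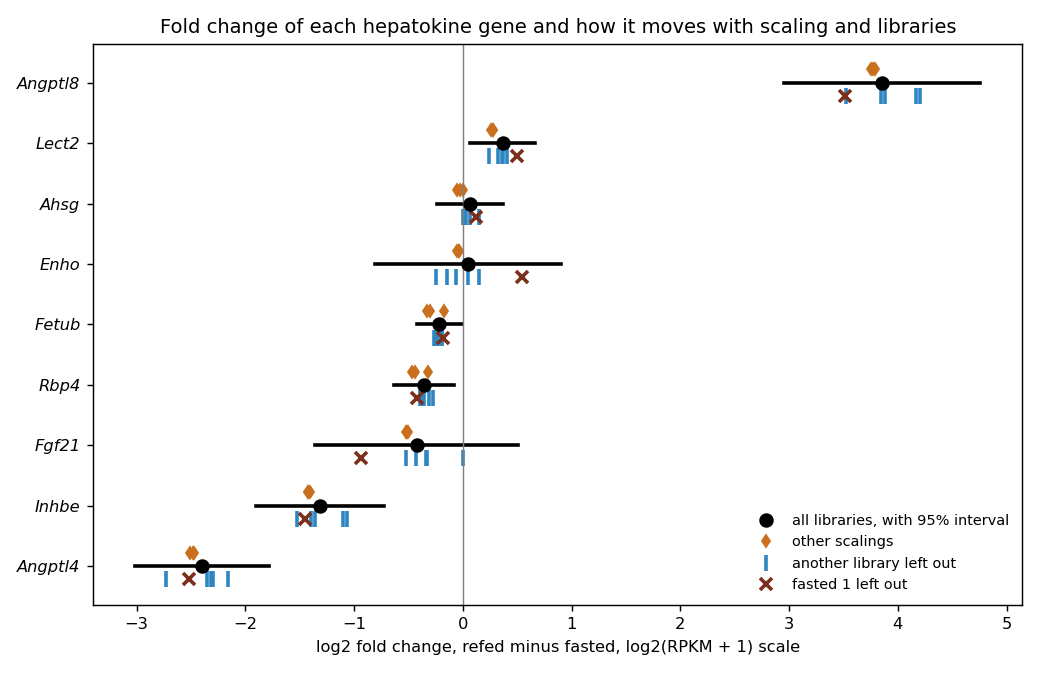
Log2 fold change of each of the 9 genes, refed minus fasted, on the log2(RPKM + 1) scale (x axis): black points and bars are the estimate with all libraries and its 95% interval, diamonds the 3 other scalings, ticks and crosses the estimates with 1 library left out. Angptl8, Angptl4 and Inhbe stay away from 0 throughout, while leaving out fasted 1 moves Fgf21 to -0.94, Enho to 0.54 and Lect2 to 0.50.

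Lists of genes under the known regulators of these hepatokines were described in the same way. Of 25 PPAR-alpha targets 20 were lower and none higher, with a median log2 fold change of -1.26, and the largest falls were those of Cpt1a (-3.40 ± 0.19, limma adjusted p = 2e-05) and Acot1 (-2.84 ± 0.47), the latter uncertain because of close copies. Of 23 carbohydrate-responsive genes 20 were higher and 2 lower, with a median of 2.63, led by Thrsp (6.66 ± 0.23) and Fasn (5.89 ± 0.18). The lower ones were Txnip (-0.85 ± 0.27, adjusted p = 0.036) and Gys2 (-0.40 ± 0.11, adjusted p = 0.023), and Txnip lost its call without fasted 3, fasted 4, refed 7 or refed 8, Gys2 without fasted 1, fasted 4, refed 5 or refed 8. Of 15 stress-response targets of ATF4 tested out of 20 listed, 6 were higher and 3 lower. Atf3 rose from 0.261 ± 0.0904 to 2.56 ± 1.35 RPKM and Mthfd2 from 0.315 ± 0.108 to 2.35 ± 0.357, while Cth fell by 1.84 ± 0.11 and Trib3 by 1.42 ± 0.18 on the log2 scale. Atf3, Mthfd2, Psat1 and Nupr1, all counted as higher, stayed under 1 RPKM in every fasted library, as did Pnpla3 of the carbohydrate list. Every listed transcript reaches 1 RPKM in some library, so these genes are present through refed liver alone. Their rises are no independent support, and the counts of higher genes carry this limit. The log2 fold changes ran from -3.40 to 0.17 in the PPAR-alpha list and from -0.85 to 6.66 in the carbohydrate list. Angptl4 at -2.39, Inhbe at -1.32 and Rbp4 at -0.35 lay within the former range, and Angptl8 at 3.85 within the latter. Both ranges are wide and hold other genes of the 9 as well. Regulation of the 9 genes by these factors was not tested.

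Other secreted liver proteins reported as hepatokines were mixed as well. Of 41 listed, 35 were tested, 6 were higher, 6 lower and 23 did not pass, with a median log2 fold change of -0.00, and 3 were higher without refed 8. Adamts7, counted as lower, reached 1 RPKM only in fasted libraries and is present through them alone. Serpina12, the adipokine vaspin, rose from 6.59 ± 4.49 to 22.1 ± 4.35 RPKM (limma adjusted p = 0.0055), and Manf, a secreted protein of the endoplasmic reticulum, rose from 27.5 ± 7.01 to 86.5 ± 26.8 RPKM (adjusted p = 0.0021). Igfbp2, a binding protein of insulin-like growth factors, fell from 534 ± 106 to 256 ± 38.8 RPKM (adjusted p = 0.0021). Hamp, which encodes hepcidin, was lower (-1.67 ± 0.57, adjusted p = 0.045) although its groups overlapped, and the call was lost with any library other than refed 8 left out (0.05 to 0.13).

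**Figure D4:**
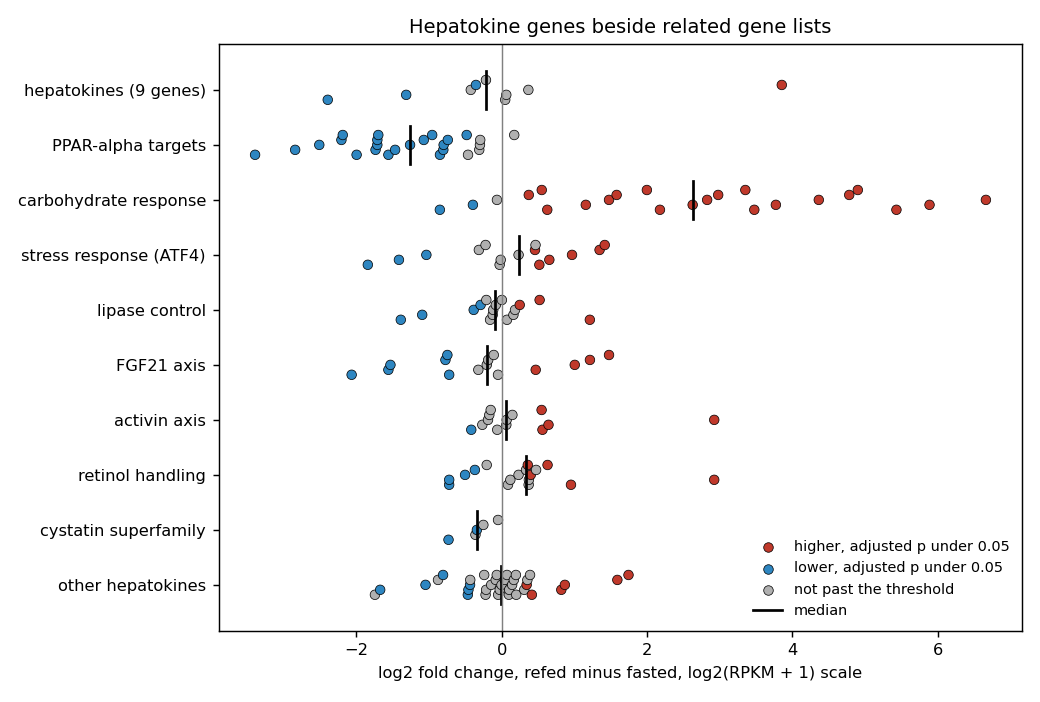
Log2 fold change, refed minus fasted, on the log2(RPKM + 1) scale (x axis) of the 9 hepatokine genes and of 9 related gene lists (rows); each point is a gene, red for higher and blue for lower at an adjusted p under 0.05, and the vertical bar is the row's median. The medians are -0.22 for the hepatokines, -1.26 for PPAR-alpha targets and 2.63 for carbohydrate-responsive genes.

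The genes with the most similar profiles were found for the 4 genes that passed, by the root mean square difference over the 6 libraries of log2(RPKM + 1) values centred on each gene's mean. Closest to Angptl8 were Tubb2a, a tubulin gene, at 0.45 and Acaca, acetyl-CoA carboxylase, at 0.47, against a median of 1.96 over all genes. Tubb2a went from 11.8 ± 4.52 to 171 ± 10.3 RPKM. Closest to Angptl4 were N4bp2l1 at 0.23 and Crat, carnitine acetyltransferase, at 0.24, against a median of 1.30, and Crat went from 38.2 ± 8.17 to 7.68 ± 1.98 RPKM. Closest to Inhbe were Raet1d, uncertain because of close copies, at 0.17 and Aldh3a2, a fatty aldehyde dehydrogenase, at 0.18, against a median of 0.79, and Aldh3a2 went from 169 ± 39.0 to 62.8 ± 14.1 RPKM. Closest to Rbp4 were Lmo7 and Zwint, each at 0.03 against a median of 0.29, both with small falls of 0.31 on the log2 scale whose calls were lost in 5 of the 6 left-out settings.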

How the data were processed

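The members and lists were chosen with earlier results of these data known. The deposited table of RPKM values, computed by the authors, lists 14659 RefSeq transcripts over 6 libraries, each of which reaches at least 1 RPKM in some library, as tested on the file; the library total behind the scaling is not stated. A second table holds 5434 genes called by the authors, with raw read counts, log2 fold changes and FDR values, which are adjusted p-values, per the file headers. These counts were selected on the outcome, so no count test was run, and depth is known only for 5 of the 9 genes. FastQC, STAR 2.6.0c, DESeq2 and mm9 are named in the submitters' processing notes without a role. Transcripts were named through RefSeq accessions (GRCm38 table, names only), 54 were left without a name, and each gene was represented by its transcript of highest mean RPKM. A filter on the mean (0.5 RPKM or more) removed 57 genes. On the log2(RPKM + 1) scale, which understates changes of low genes, limma 3.58.1 (R 4.3.3) compared the groups, two-sided, with trended variances, no covariate and Benjamini-Hochberg adjustment at 0.05; the script was tested on simulated data. Folds are ratios of mean RPKM, errors of means are SD and those of log2 fold changes SE. Reads in called genes differed between replicates by a chi-square of 59.1 to 240 per degree of freedom, so no library repeated another within sampling noise. Alternatives were a pseudocount of 0.1, no filter, median centring, quantile normalization, TMM factors (edgeR 4.0.16), summed transcripts, a constant prior variance and each library left out. The genes named were all 9, the 2 largest rises and falls among genes past the threshold in each list of related genes described, partners set by role, overlapping or neighbouring genes and the 2 nearest profiles. One gene set by role is not reported here.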

Additional observations from a re-analysis of the deposited data

How the results depend on the processing

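Of the 9 genes, 4 passed with all libraries, 3 to 7 with 1 library left out and 3 to 5 in the 3 other scalings, the 7 being reached without fasted 1. The number of all genes that passed ran from 3459 to 4201 with a library left out and from 4452 to 4493 in the other scalings, and these scalings moved the median log2 fold change from 0.10 to 0.01 and the share of calls on the higher side from 62.6% to between 48.1% and 49.1%. Quantile normalization left Rbp4 short of the threshold at a log2 fold change of -0.32, and left-out libraries gave Rbp4 values from -0.42 to -0.28. Fetub passed at -0.30 with centring and -0.33 with TMM, but not at -0.17 with quantile normalization. Over left-out libraries Fgf21 ran from -0.94 to -0.00127, Lect2 from 0.24 to 0.50, Enho from -0.25 to 0.54 and Ahsg from -0.00196 to 0.14. Enho changed sign with centring (-0.0394), quantile normalization (-0.0353) and TMM (-0.0550), and Ahsg with centring (-0.0246) and TMM (-0.0495). Values near 0 that changed sign were the log2 fold change of Lpl at -0.0149, -0.0174 and -0.0152 in the 3 scalings and -0.0245 to 0.19 over left-out libraries, the log2 fold change of Ttr at -0.000883 with centring, -0.0258 with TMM and -0.00789 to 0.14 over left-out libraries, Fgfr1 at -0.15 to 0.15 and Fbxl21, a gene that overlaps Lect2 in RefSeq, at -0.0770 to 0.0127. The cause of these sign changes was not tested. GENCODE M21, unlike RefSeq, lists no gene that overlaps Lect2. No paired analysis was possible because the groups share no replicate numbers. With 3 libraries per group, an exact permutation test could not reach the threshold, and full depth per library is unknown.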
